A study of Arabidopsis thaliana with 22 samples.

Results

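The regions described here are places on the chromosome arms of Arabidopsis thaliana where RNA polymerase IV (Pol IV) and ZMP were both called, where Pol IV was still called in the zmp-2 mutant, and where no peak of trimethylated histone H3 lysine 4 (H3K4me3) lay on the region. They were chosen by the presence and absence of ChIP-seq peaks. Peaks of the 4 NRPD1-HA lists were merged, and a merged region was kept if it held a peak of all 4 lists, touched a peak of both ZMP-HA lists, touched neither an H3K4me3 peak nor a peak of the untagged plants, and had its midpoint outside the gene-poor window around each centromere. The rule found 1278 regions among the 8688 merged NRPD1-HA regions that were free of untagged peaks. The calls fixed the members, so that the presence of each mark at them is not a result, and heights of the same NRPD1-HA peaks are given as descriptions with no test.

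Pol IV is a plant RNA polymerase that begins RNA-directed DNA methylation. Its short transcripts are turned into double-stranded RNA and cut into small interfering RNAs that guide cytosine methylation to transposons and other repeats. NRPD1 is its largest subunit, ZMP is a protein with a PHD finger, a fold that in many proteins reads the tail of histone H3, and H3K4me3 marks the start of transcribed genes.

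Chromatin was immunoprecipitated with an antibody to the HA tag of the protein or to H3K4me3. Its DNA was sequenced (ChIP-seq) and set against input DNA. This was done on inflorescences of the Col-0 ecotype grown in long days. NRPD1-HA, driven by the NRPD1 promoter, was profiled in WT and in zmp-2, a T-DNA insertion allele, with 2 biological replicates each. WT plants with no transgene, also with 2 replicates, were profiled beside them, and these samples are called set A here. ZMP-HA under the ZMP promoter was profiled with 2 replicates beside 2 further untagged WT replicates. The labels of both carry a (B), and they are called set B here. H3K4me3, with no (B) in its label, was profiled in WT with 1 library, so that no H3K4me3 value has a replicate check. Each tagged line was, per the study's methods, a line with 1 transgene insertion. The labels give the genotype of the WT NRPD1-HA and ZMP-HA plants as WT, and the study's ChIP methods place these lines in Col-0. Its cloning methods describe transformation into the corresponding mutants, so that whether an untagged copy of the gene was present is not settled by these sources. The labels name no antibody for the untagged plants of set A. Overlaps of ZMP-HA with NRPD1-HA are across different sets of samples and, for zmp-2, across genotypes.

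On chromosomes 1 to 5 there were 7250 and 7518 NRPD1-HA peaks in WT, 7012 and 8655 in zmp-2, 7247 and 6730 ZMP-HA peaks, and 271 to 952 in the untagged lists. The coverage that the peak caller took as the general background, which follows the depth of the smaller of immunoprecipitate and input, was 25.02 and 41.0 fragments per base in WT replicates 1 and 2, against 26.6 and 38.7 in the same replicates of zmp-2. Depth therefore went with the replicate number and not with the genotype. ZMP-HA had 29.3 and 24.8 fragments per base and H3K4me3 had 5.37.

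Of the 8688 regions, 4138 had a peak in all 4 NRPD1-HA lists. Of these, 3288 lay in the arms, 1602 of those touched both ZMP-HA lists, and removal of regions on H3K4me3 peaks left the 1278. Regions that met every condition but 1 show how near the edge of the rule lies. H3K4me3 peaks touched 324 further regions, only 1 ZMP-HA list reached 366, untagged set A peaks touched 106, and 82 lacked a single NRPD1-HA list. The missing list was zmp-2 replicate 1 in 41 of the 82, WT replicate 2 in 24, zmp-2 replicate 2 in 9 and WT replicate 1 in 8. Just inside the rule, the region at chr4:2353495-2367626 lay 1 base from an H3K4me3 peak and that at chr2:18496850-18498844 lay 3 bases from one. At the edge of the gene-poor windows, a region at chr3:15903852-15904950 was kept and one at chr3:15898765-15900509 was not. The kept region had NRPD1-HA fold enrichments of 10.03 and 7.43 in WT against 10.7 and 12.4 in zmp-2, and the region left out had 5.15 and 3.40 in WT against 2.83 and 3.35 in zmp-2. Of the 1278 members, 4 touched a peak of the untagged plants of set B, which the rule did not use.

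The sequences under the peaks are shown first for 3 of the members that ranked highest in every list. Each run is 300 bases of the reference genome (RefSeq, TAIR10.1), plus strand, 5′ to 3′, centred on the mean of the 6 NRPD1-HA and ZMP-HA summits. The capitals mark the stretch from the first to the last of these 6 summits. That stretch was 47 bases in the first, 23 bases in the second and 124 bases in the third.
chr3:1210528-1210827: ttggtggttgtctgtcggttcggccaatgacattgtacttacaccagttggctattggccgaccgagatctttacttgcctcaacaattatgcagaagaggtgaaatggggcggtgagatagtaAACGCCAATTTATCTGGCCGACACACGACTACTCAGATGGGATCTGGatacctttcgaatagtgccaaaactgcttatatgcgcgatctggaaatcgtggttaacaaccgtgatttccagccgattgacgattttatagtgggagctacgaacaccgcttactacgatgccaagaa
chr4:13902767-13903066: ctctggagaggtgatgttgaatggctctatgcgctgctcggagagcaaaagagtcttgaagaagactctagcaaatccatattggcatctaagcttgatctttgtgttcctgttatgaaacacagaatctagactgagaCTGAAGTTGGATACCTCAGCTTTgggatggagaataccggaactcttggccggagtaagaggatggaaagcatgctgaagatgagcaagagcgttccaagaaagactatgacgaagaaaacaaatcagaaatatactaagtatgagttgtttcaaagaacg
chr1:28964995-28965294: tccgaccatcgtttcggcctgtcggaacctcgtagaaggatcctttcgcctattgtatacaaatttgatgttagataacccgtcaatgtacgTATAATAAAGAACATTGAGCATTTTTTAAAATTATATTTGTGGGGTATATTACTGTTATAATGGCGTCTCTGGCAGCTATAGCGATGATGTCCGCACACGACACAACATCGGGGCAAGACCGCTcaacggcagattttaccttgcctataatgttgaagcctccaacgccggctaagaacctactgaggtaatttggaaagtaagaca
None of the 3 sequences had a further copy elsewhere in the genome, counted as an alignment of at least 80% identity over at least 50% of the window. Their GC content was 46.7%, 42.7% and 42.7%.

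Fold enrichment is the authors' value at the summit of a peak, the fragment pileup over the background with 1 added to each, and a region was given its highest peak in each list. At the 1278 members the median fold enrichment of NRPD1-HA was 6.61 (range 1.77 to 248) in WT replicate 1, 4.64 (1.52 to 238) in WT replicate 2, 4.67 (1.63 to 158) in zmp-2 replicate 1 and 5.37 (1.43 to 241) in zmp-2 replicate 2. The medians of the replicates bracket each other across the genotypes, with WT replicate 1 the highest and WT replicate 2 the lowest. ZMP-HA was lower and narrower in range, with medians of 2.98 (1.53 to 19.0) and 2.63 (1.54 to 18.3). The median pileup at the summit was 174.5 and 194 fragments in the WT NRPD1-HA lists and 92 and 70 in the ZMP-HA lists, so the lower ZMP-HA values rest on fewer fragments. In the NRPD1-HA lists 72.0% to 78.6% of peaks had a fold enrichment at or below the member median, and 65.5% to 71.2% had one at or below the median of all 4138 regions called in all 4 lists. A region called in every list is given its best peak, so a high standing is built in. The least certain member calls were in ZMP-HA replicate 2, where 9 members had a best q-value over 0.01.

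Members are set beside the other regions called in all 4 NRPD1-HA lists and no H3K4me3 peak that are most like them. The 1167 arm regions without a ZMP-HA peak had NRPD1-HA medians of 4.00 and 4.12 in WT against 3.77 and 5.77 in zmp-2. The 415 pericentromeric regions with both ZMP-HA lists had 4.11 and 3.0 in WT, 2.72 and 3.05 in zmp-2, and 2.72 and 2.36 for ZMP-HA. Members were thus above the pericentromeric regions in all 6 lists and above the arm regions without ZMP-HA in 3 of the 4 NRPD1-HA lists, with zmp-2 replicate 2 the exception. Regions are not replicates, so these differences between classes were not tested here or below. The percentages that follow carry exact binomial (Clopper-Pearson) 95% intervals, which cover counting error over regions only.

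**Figure D1:**
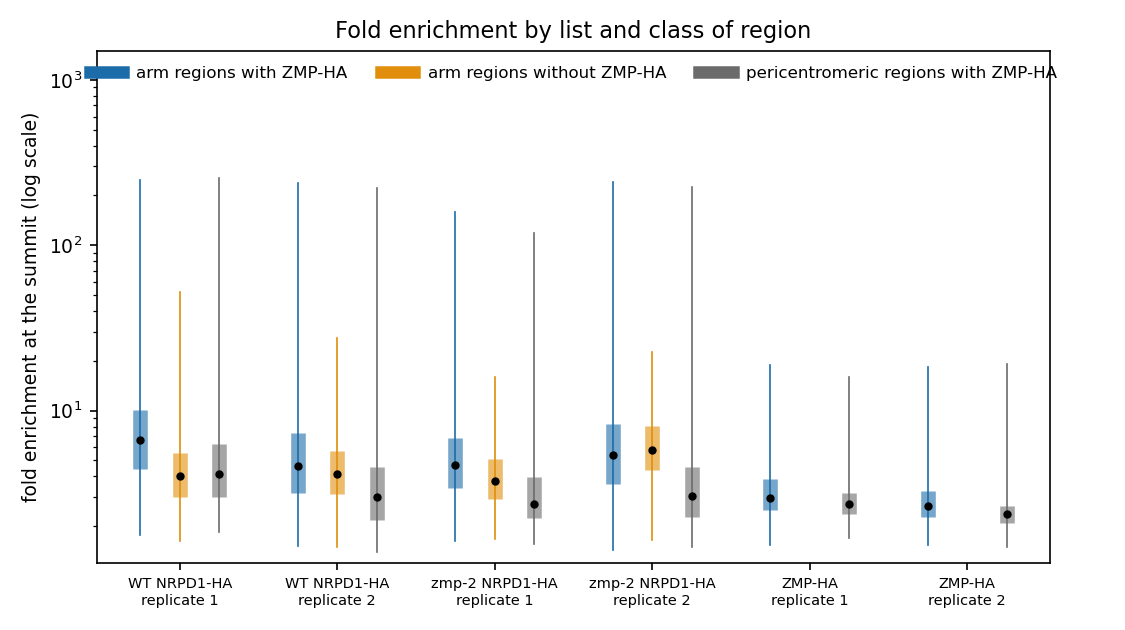
Fold enrichment at the summit (log scale) in each NRPD1-HA and ZMP-HA list for the members, the arm regions without a ZMP-HA peak and the pericentromeric regions; thick bars span the middle quartiles, thin lines the lowest to the highest region, and points are medians. Member medians run from 4.64 to 6.61 in the NRPD1-HA lists and are 2.98 and 2.63 in the ZMP-HA lists.

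The member that ranked best over all 6 lists lay at chr3:1208867-1211971, where the 3′ ends of the exportin-4 gene AT3G04490 and of AT3G04500, which encodes an RNA-binding protein, face each other. Its NRPD1-HA fold enrichments were 248 and 229 in WT against 126 and 229 in zmp-2, and its ZMP-HA values were 19.0 and 18.3. The zmp-2 replicate 1 value was the lowest of the 4, and the zmp-2 replicate 2 value did not stand apart from WT. The next, at chr5:9799021-9803196, reached over the 5′ end of the DNA helicase gene RECQSIM, with 193 and 238 in WT, 85.0 and 180 in zmp-2 and 12.8 and 15.1 for ZMP-HA. The third, at chr4:13901680-13904313, lay between PYL10, which encodes an abscisic acid receptor, and MTM1, a gene of mitochondrial manganese handling, with 177 and 210 in WT, 77.9 and 180 in zmp-2 and 13.3 and 15.2 for ZMP-HA. In the last of these the lower WT value was below the higher zmp-2 value, so the genotypes overlapped.

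At chr1:18224276-18228003 a member spanned the whole of AT1G49260 and the 3′ part of the receptor kinase gene PERK7, with 232 and 187 in WT, 158 and 178 in zmp-2 and 12.2 and 13.2 for ZMP-HA. It was the member with the highest zmp-2 replicate 1 value. At chr4:2557659-2562702 a member overlapped no annotated gene and lay 338 bases from VPS28-2, which encodes a subunit of a membrane sorting complex. Its values were 173 and 232 in WT, 95.0 and 241 in zmp-2 and 12.8 and 15.9 for ZMP-HA. The other 5 of the 10 best ranked members lay at chr1:28963623-28967813 over the pseudogene AT1G77095 and the peroxidase gene AT1G77100, at chr4:7591354-7594409 over the long non-coding RNA AT4G05995, at chr1:11616416-11621087 at the 3′ end of RCD1, at chr1:24480697-24484990 at the 5′ end of AT1G65810, and at chr3:20029542-20033915 at the 3′ end of FLN1, which encodes a fructokinase-like protein of the plastid. RCD1 encodes a protein of stress and hormone responses that binds transcription factors. Their WT values ran from 168 to 237 and their zmp-2 values from 58.0 to 217.

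Such values were far from typical. With the level of a member taken as the geometric mean of its 4 NRPD1-HA fold enrichments, the median level was 5.27, 578 members were under 5, 514 were at 5 to 10, 141 at 10 to 25 and 45 at 25 or more. This grouping, and the limit of 25, were chosen after the values had been seen, and the members on either side of the limit had levels of 26.2 and 23.9. The highest level was 201. The 45 strongest members had median fold enrichments of 123 and 141 in WT against 44.2 and 88.8 in zmp-2, and their ZMP-HA medians were 7.24 and 7.92, against 2.74 and 2.40 at the 578 weakest. They lay on all 5 chromosomes, with 14, 6, 7, 8 and 10 on chromosomes 1 to 5. None of them touched an untagged peak of set B and 2 had a set A untagged peak within 1 kb. A level of 25 or more occurred at 90 of the 4138 regions with all 4 lists. It occurred at 0 of the 1167 arm regions without ZMP-HA, whose highest level was 17.9, and at 12 of the 415 pericentromeric regions.

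The strongest members differed from the others in width and in what the merged regions overlapped or lay near. They were wide, with a median of 3826 bases against 1733 bases at the weakest. A protein-coding gene was overlapped by 39 of the 45 (86.7%, interval 73.2 to 94.9), against 38.3% at levels of 10 to 25, 46.9% at 5 to 10 and 39.8% under 5. A summit sequence repeated elsewhere in the genome was found at 10 of the 45 (22.2%, 11.2 to 37.1), against 59.6%, 64.0% and 62.8% in the same order. An H3K4me3 peak within 1 kb was present at 16 (35.6%, 21.9 to 51.2), against 56.7%, 54.1% and 36.7%. An overlap needs only 1 shared base and does not place the summit in the gene. Wider regions meet more genes, and how far the width accounts for the gene share was not tested.

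NRPD1-HA had lower values in zmp-2 at most of the 45. Their median log2 difference, zmp-2 minus WT, was -1.16 (quartiles -1.50 and -0.77), and both zmp-2 values lay below both WT values at 37 and above them at 0. Over all 4138 regions called in all 4 lists, 19.3% lay below and 14.4% above. Strong regions outside the set had low zmp-2 values too. Of the 90 four-list regions at a level of 25 or more, members included, 70 lay below, with a median of -0.98. Of the 12 pericentromeric ones, 9 lay below, with a median of -0.85. At member levels of 10 to 25, 5 to 10 and under 5 the median log2 difference was -0.04, -0.11 and -0.09. The level used here takes both genotypes equally, and the choice was repeated on the replicate 1 lists alone. The 44 members so chosen had medians of 146 in WT replicate 2 and 89.0 in zmp-2 replicate 2. Their median log2 difference in replicate 2 was -0.57, and 40 of the 44 were lower in zmp-2. The rule had used the replicate 2 peaks to pick members and the replicates go together, so this is not an independent check. The median log2 difference in replicate 2 was above 0 in the other groups, at 0.38, 0.24 and 0.18. The smallest exact p that 2 libraries against 2 allow is 0.33, and no test was made.

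**Figure D2:**
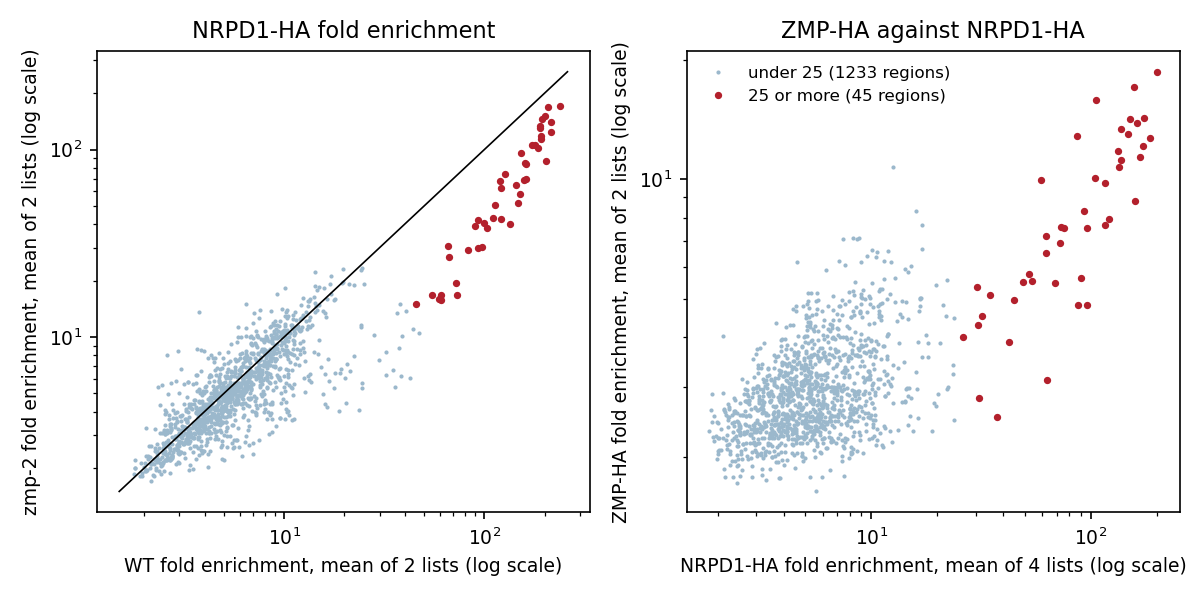
NRPD1-HA fold enrichment in zmp-2 against WT (left, geometric means of 2 lists, with the line of equality) and ZMP-HA against NRPD1-HA fold enrichment (right, geometric means of 2 and of 4 lists) at the 1278 members, all axes on a log scale; red points are the 45 members with a level of 25 or more. All red points lie below the line, with a median log2 difference of -1.16.

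Short words that set the strongest members apart were looked for in their sequences, after the group had been seen. Of all words of 10 letters, of 13 letters with the ninth free, and of 18 letters with 4 free, the word whose share at the 45 most exceeded its share at the other members was kept. These were GCAAAACATA, AAGCAAAANATAA and AAGNAAAANNTAAGNAAA, where N is any base. They were searched on both strands in the 1000 bases around the mean summit, and they overlap each other in sequence. The first was present at 19 of the 45, the second at 17, the third at 17, and any of them at 28 (62.2%, 46.5 to 76.2). In the other 1233 members the counts were 8, 2 and 0, and any word was present at 10 (0.811%, 0.390 to 1.49). The words were chosen for this contrast, so that these counts describe the choice.

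Regions outside the set had no part in finding the words, and they showed the same split by level. Of the 45 regions called in all 4 NRPD1-HA lists at a level of 25 or more that were not members, 22 held a word (48.9%, 33.7 to 64.2), and 13 held the third. Among them, the 12 pericentromeric regions with both ZMP-HA lists held a word at 4 and the third at 1. Their level came from the same NRPD1-HA lists, and whether they share longer sequence with members was not tested. Of the 2815 other such regions under 25, 39 held a word (1.39%, 0.987 to 1.89), and 1 held the third. The share was 1.63% at the 1167 arm regions without ZMP-HA and 2.39% over all 4138 regions. The words are rich in A, and the median GC content of the summit windows was 35.7% at the 45 strongest members and 32.0% in the arm regions without ZMP-HA. The part of base composition in these shares was not tested. On chromosomes 1 to 5 the first word occurred 872 times, the second 290 times and the third 107 times. Of the 107 matches of the third word, 43 (40.2%) lay in regions called in all 4 lists at a level of 25 or more, and 21 of the 107 lay in members. The 43 include matches in the strongest members, from which the word was chosen, so this share partly describes that choice. A match is a match of letters and was not examined for any bound factor.

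The words are shown in 8 of the strongest members, to let their surroundings be compared. Each run is 60 bases of the strand that reads as the word, from RefSeq TAIR10.1, 5′ to 3′, and the capitals mark the match to AAGNAAAANNTAAGNAAA.
chr3:1210269-1210328, minus strand: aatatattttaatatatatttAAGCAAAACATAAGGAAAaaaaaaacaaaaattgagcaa
chr4:13903131-13903190, plus strand: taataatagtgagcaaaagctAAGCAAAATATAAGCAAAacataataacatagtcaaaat
chr3:20031464-20031523, minus strand: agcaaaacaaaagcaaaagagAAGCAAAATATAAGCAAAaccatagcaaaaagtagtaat
chr4:273522-273581, minus strand: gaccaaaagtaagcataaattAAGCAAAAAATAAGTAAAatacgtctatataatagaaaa
chr5:6440824-6440883, minus strand: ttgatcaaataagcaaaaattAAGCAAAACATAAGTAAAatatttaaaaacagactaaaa
chr2:638960-639019, plus strand: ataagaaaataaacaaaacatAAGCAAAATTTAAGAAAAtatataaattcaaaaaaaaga
chr5:9114386-9114445, plus strand: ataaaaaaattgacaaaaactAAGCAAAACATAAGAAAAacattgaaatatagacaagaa
chr5:18636867-18636926, plus strand: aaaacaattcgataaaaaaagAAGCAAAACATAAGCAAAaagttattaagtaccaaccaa
The first 3 come from the 10 best ranked members, whose log2 differences between genotypes were -0.49, -0.70 and -0.63. In the regions of the other 5 the log2 difference was from -1.89 to -1.31. Of the 8 matches, 7 lay outside annotated genes and that at chr2:638960-639019 lay in an intron of AT2G02440. The summit windows of 8 of the 45 strongest members aligned to part of another of the 45. The match at chr2:638960-639019 lay in such an alignment, at 78.1% identity over 73 bases. The matches may thus not be independent of each other.

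The words mostly lay to the side of the summit. In the 28 strong members with a word inside the window, the nearest word was a median of 336.5 bases from the mean NRPD1-HA summit (range 11.5 to 512.5). By distance, 6 of the 45 strongest members held a word within 250 bases of that summit, 24 at 250 to 500 bases, 5 at 500 to 750 and 1 at 750 to 1000. In the other 1233 members the counts were 6, 5, 7 and 6. Over the whole merged region a word was present at 32 of the 45 and at 21 of the 1233. Strong members with and without a word in the window had about the same median log2 difference, -1.17 and -1.16, while their median NRPD1-HA levels were 100.35 and 62.5 and their median ZMP-HA levels 9.42 and 7.17.

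**Figure D3:**
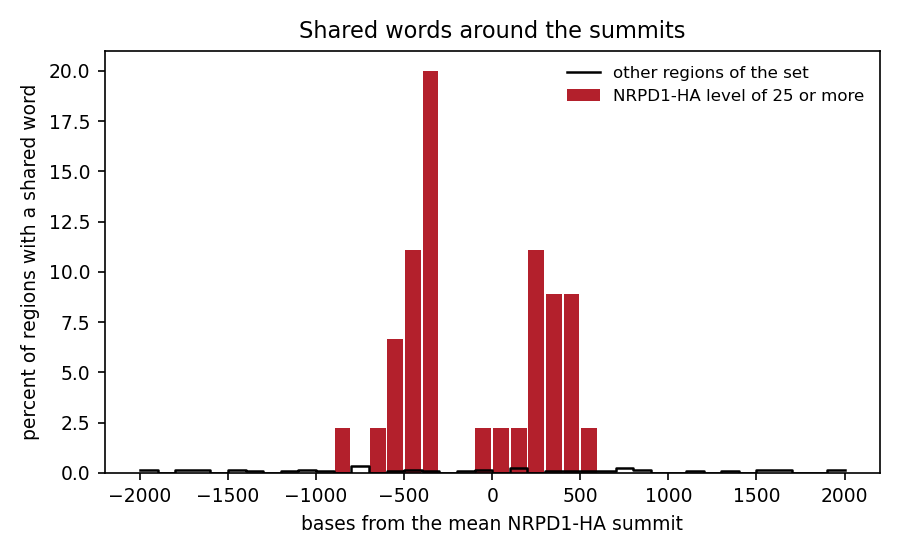
Percent of members with any of the 3 shared words, on either strand, in steps of 100 bases from the mean NRPD1-HA summit, for the 45 members with a level of 25 or more (bars) and the other 1233 members (line). The bars are highest at 350 bases on one side (20.0%) and stay at 2.22% or less within 200 bases of the summit.

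A pair of the 10 best ranked members shared sequence. The 300 bases around the summit of the member near VPS28-2 and the member at RECQSIM aligned over 217 bases at 91.2% identity, on opposite strands. The pair is printed to show the match, each as 300 bases of RefSeq TAIR10.1, the first on the plus strand of chromosome 4 and the second on the minus strand of chromosome 5, with the aligned bases in capitals. The alignment runs past the end of the second window, so 160 of its aligned bases are shown.
chr4:2560357-2560656, plus strand: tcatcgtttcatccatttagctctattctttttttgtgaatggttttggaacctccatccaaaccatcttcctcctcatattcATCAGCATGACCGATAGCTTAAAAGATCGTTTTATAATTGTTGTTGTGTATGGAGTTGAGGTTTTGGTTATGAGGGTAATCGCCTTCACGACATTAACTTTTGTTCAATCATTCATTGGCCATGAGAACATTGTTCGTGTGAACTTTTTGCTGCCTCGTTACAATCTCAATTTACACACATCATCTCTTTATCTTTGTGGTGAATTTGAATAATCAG
chr5:9801007-9801306, minus strand: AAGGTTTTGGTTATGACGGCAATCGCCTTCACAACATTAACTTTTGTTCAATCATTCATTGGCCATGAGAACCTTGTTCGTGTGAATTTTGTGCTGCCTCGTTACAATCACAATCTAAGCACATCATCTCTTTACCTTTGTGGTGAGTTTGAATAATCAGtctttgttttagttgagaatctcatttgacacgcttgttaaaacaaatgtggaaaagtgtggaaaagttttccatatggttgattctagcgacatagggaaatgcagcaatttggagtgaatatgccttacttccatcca
The ZMP-HA values of the pair were close, at 12.8 and 15.9 in the first and 12.8 and 15.1 in the second, and their NRPD1-HA values differed most in zmp-2 replicate 2, at 241 and 180. Reads from a shared stretch can be placed at either copy, and how many were was not tested.

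Over all 1278 members the calls were kept in zmp-2 by the rule, but the heights were not all alike. The median log2 difference, zmp-2 minus WT, was -0.11 (quartiles -0.37 and 0.11, range -2.81 to 1.86). Without WT replicate 1 it was 0.14, so the direction of the median rests on that library. Both zmp-2 values lay below both WT values at 295 members (23.1%), where 19.3% of the 4138 regions with all 4 lists did so. Both lay above at 119 members (9.31%), where 14.4% of the 4138 did so. The values of the genotypes overlapped at the other 864. These counts rest on single libraries, since leaving out WT replicate 2 gave 876 below and leaving out zmp-2 replicate 2 gave 563, while 621 lay above once WT replicate 1 was left out and 356 once zmp-2 replicate 1 was. The rule used these same lists, so nothing is read from the difference between the shares. In the arm regions without ZMP-HA the median log2 difference was 0.21, with 103 below (8.83%) and 310 above (26.6%), and in the pericentromeric regions it was -0.23, with 137 below (33.0%) and 12 above (2.89%). The rule fixed the presence of calls in both genotypes, and the height at single members differed by up to 7-fold.

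Members with lower zmp-2 values were wider and less often repeated. The 295 with both zmp-2 values below had a median width of 2125 bases and a repeated summit sequence at 40.0%, against 1532.5 bases and 68.8% where the genotypes overlapped. The 119 with both values above had a median width of 954 bases, 62.2% repeated summits and no annotated gene at 39.5%. A log2 difference of -1 or less was found at 109 members (8.53%) and one of 1 or more at 12 (0.939%). Over the 4138 regions with all 4 lists these shares were 6.65% and 1.47%. Of the 109, 23.9% had a repeated summit, against 65.0% of the other 1169. This was not limited to the strongest members, since among the 83 of the 109 with a level under 25 the share was 25.3%. By copy number, the share with both zmp-2 values below was 36.0% of the 492 members with no further copy and 8.42% of the 202 with 10 or more. Over all 4138 regions with all 4 lists the share was 19.3%. No split by copy number is given for those regions or the other classes, so this is not shown to be particular to members.

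The lowest zmp-2 values relative to WT were at chr1:7025706-7027866, inside AT1G20290, with 43.5 and 41.2 in WT against 4.88 and 7.48 in zmp-2, a log2 difference of -2.81. The next was at chr3:18810860-18814118, which reached 170 bases into the 3′ end of DWF4, the gene of a cytochrome P450 of brassinosteroid synthesis. It had 30.7 and 41.3 in WT against 3.95 and 7.38 in zmp-2, with ZMP-HA at 2.81 and 2.67 and a log2 difference of -2.72. The third, at chr1:10196192-10198308, 456 bases from AT1G29179, had 36.0 and 41.1 in WT against 4.93 and 7.86 in zmp-2. In all 3 the genotypes were far apart, while the ZMP-HA values, 2.25 to 3.27, were near the member medians. They were named because their difference was the largest.

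The highest zmp-2 values relative to WT were at chr1:4061205-4062109, over AT1G12020, with 4.22 and 3.36 in WT against 11.8 and 15.8 in zmp-2, a log2 difference of 1.86. At chr5:15840763-15841699, next to the 3′ end of AT5G39560, a gene of the kelch repeat family, the values were 2.61 and 2.57 in WT against 6.45 and 9.98 in zmp-2. At chr1:23067891-23068633, over the long non-coding RNA AT1G08517, they were 3.23 and 2.71 against 7.61 and 9.30. These members were narrow, with widths of 905, 937 and 743 bases, whereas the 3 with the lowest zmp-2 values were 2161, 3259 and 2117 bases wide.

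One sequence from each end of this range is shown, with the stretch that held the 6 summits in capitals (67 bases in the first and 141 in the second), plus strand, RefSeq TAIR10.1.
chr3:18812256-18812555, member at DWF4: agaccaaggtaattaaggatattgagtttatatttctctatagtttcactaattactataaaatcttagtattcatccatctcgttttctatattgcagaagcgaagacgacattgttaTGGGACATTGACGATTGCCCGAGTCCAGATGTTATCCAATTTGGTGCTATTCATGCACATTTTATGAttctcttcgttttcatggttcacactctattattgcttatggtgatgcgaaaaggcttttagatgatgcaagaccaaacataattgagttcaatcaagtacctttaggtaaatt
chr5:15841096-15841395, member at AT5G39560: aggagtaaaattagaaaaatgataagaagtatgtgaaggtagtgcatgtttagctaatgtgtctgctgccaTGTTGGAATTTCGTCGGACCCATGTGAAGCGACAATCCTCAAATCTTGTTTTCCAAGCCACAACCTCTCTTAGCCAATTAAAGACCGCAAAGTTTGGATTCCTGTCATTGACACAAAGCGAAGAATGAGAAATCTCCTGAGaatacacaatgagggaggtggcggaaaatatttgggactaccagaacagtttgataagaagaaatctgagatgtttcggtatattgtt
The first had no further copy in the genome and a GC content of 34.0%, and the second had 1 further copy and 39.7%.

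The members were spread over all arms and were denser toward the centromeres. Chromosomes 1 to 5 held 332, 260, 220, 207 and 259, or 12.4, 14.9, 11.7, 13.2 and 11.2 per Mb of arm. Within 1 Mb of the gene-poor windows there were 31.3 members per Mb, at 1 to 2 Mb 20.0, at 2 to 5 Mb 13.1, at 5 to 10 Mb 8.33 and at 10 to 20 Mb 5.81. Away from the centromeres members were narrower and their WT values higher. The median width was 2125 bases in the first of these bands and 1103 bases in the last, and the median WT fold enrichment was 4.99 and 7.28. The median log2 difference between genotypes was -0.14 in the first band and -0.07 in the last, and its median on single chromosomes ran from -0.16 to -0.06. The median gap between neighbours was 42343 bases, and 126 of 1273 gaps were under 5 kb.

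The median width of a member was 1566 bases (range 468 to 17052), against 888 bases in the arm regions without ZMP-HA and 2734 bases in the pericentromeric regions. Together the members covered 3.21 Mb. Of them, 165 (12.9%) were over 5 kb wide, and 89.1% of those 165 overlapped a pseudogene. The widest, at chr4:1785928-1802979, took in 5 pseudogenes and the coding gene AT4G03830 and had low values throughout, 3.61 and 3.06 in WT, 2.33 and 3.20 in zmp-2 and 3.40 and 2.66 for ZMP-HA. The next, at chr1:16945949-16962475, overlapped 6 pseudogenes and no other gene, with 7.76 and 4.31 in WT against 5.03 and 4.46 in zmp-2. The third, at chr4:2353495-2367626, held the gene AT4G04650, which is related to reverse transcriptase, with 7.40 and 5.29 in WT against 4.35 and 6.30 in zmp-2. In each of the 3 at least 1 zmp-2 value lay above the lower WT value.

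Gene annotation was not used by the rule. A protein-coding gene was overlapped by 564 members (44.1%, 41.4 to 46.9), against 30.8% (28.2 to 33.6) of arm regions without ZMP-HA and 20.0% (16.3 to 24.2) of pericentromeric regions. On the 5 chromosomes the member share ran from 38.8% to 48.6% and that of the arm regions without ZMP-HA from 26.5% to 36.7%. Members stood higher on each chromosome, and they were also wider. By position of the mean summit alone, 22.1% of members, 13.1% of arm regions without ZMP-HA and 8.92% of pericentromeric regions had their centre in a protein-coding gene. The mean was over 4 NRPD1-HA summits in the arm regions without ZMP-HA and over 6 summits in the other classes. In wide regions whose summits lay far apart it need not fall on a summit. A pseudogene was overlapped by 427 members (33.4%), 6.60% of arm regions without ZMP-HA and 66.0% of pericentromeric regions. A non-coding RNA gene was overlapped by 12.3% of members, and no annotated gene by 328 (25.7%), against 59.1% of arm regions without ZMP-HA. The transposable element annotation was not used here, and many transposon remnants appear in RefSeq as pseudogenes with no product name.

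Many members lay close to the start of a gene. A coding 5′ end lay within 500 bases of 722 members (56.5%, 53.7 to 59.2), against 41.6% (38.8 to 44.5) of arm regions without ZMP-HA and 25.8% (21.6 to 30.3) of pericentromeric regions. On single chromosomes the member share ran from 51.5% to 63.3%. Members off protein-coding genes had a 5′ end as the nearest gene end in 64.8% of cases, which the other classes also showed, at 62.6% and 59.3%. Members over no annotated gene were the narrower ones, with a median of 1120 bases, and had H3K4me3 within 1 kb in 56.7% of cases. Members over a pseudogene and no coding gene had a median of 2884.5 bases and H3K4me3 within 1 kb in 31.4%.

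A member lay within 1 kb of 1759 protein-coding genes, 6.41% of the 27444 in the genome and 6.63% of the 26535 in the arms. Gene families of the arms were counted against that share. F-box genes, which encode the target-binding parts of ubiquitin ligases, had a member within 1 kb at 62 of 636 (9.75%, 7.56 to 12.3). Defensin-like and other small cysteine-rich protein genes had one at 58 of 617 (9.40%, 7.22 to 12.0) and disease resistance genes at 19 of 189 (10.1%, 6.16 to 15.3). MADS genes, which encode transcription factors of flower development among others, had 11 of 117 (9.40%), receptor-like kinases 13 of 170 (7.65%) and cytochromes P450 12 of 243 (4.94%). The intervals of F-box and defensin-like genes lay above 6.63%, and those of the other coding families just listed included it. Genes of a family often lie in clusters and are not independent. Genes named as transposase or retrotransposon had 9 of 50 (18.0%), pseudogenes 597 of 2149 (27.8%), long non-coding RNAs 253 of 3260 (7.76%) and tRNAs 20 of 618 (3.24%).

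A list was drawn up of 11 genes taken to be silenced or tuned by RNA-directed DNA methylation, or imprinted. Of these, 1 had a member within 1 kb, where 6.63% of all coding genes of the arms did, so the count does not stand apart from that share. It was HDG9, an imprinted homeobox gene. That member, at chr5:5701144-5703217, overlapped the 3′ end of HDG9, with 3.96 and 5.62 in WT, 4.13 and 8.11 in zmp-2 and 2.21 and 2.55 for ZMP-HA, so the genotypes overlapped. Its ZMP-HA peaks lay over 1 kb from the gene itself. FWA, a homeobox gene silenced through repeats at its start, and SDC, an F-box gene silenced in the same way, had peaks of all 4 NRPD1-HA lists within 1 kb but gave no member. At FWA neither ZMP-HA list had a peak within 1 kb, and at SDC 1 did. Of 27 genes of the methylation machinery itself, 0 had a member within 1 kb, a list too short to be read against the share of 6.63%.

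H3K4me3 was kept off the members by the rule, but its distance beyond the edges was not used. An H3K4me3 peak lay within 1 kb of 586 members (45.9%, 43.1 to 48.6), against 32.5% (29.8 to 35.2) of arm regions without ZMP-HA and 22.9% (18.9 to 27.2) of pericentromeric regions. The member share ran from 41.5% to 52.1% on the 5 chromosomes and that of the arm regions without ZMP-HA from 30.05% to 36.03%, so the ranges did not overlap. Within 2 kb the shares were 62.4%, 49.4% and 32.5%. H3K4me3 on both sides within 1 kb was found at 87 members (6.81%) and 4.63% of arm regions without ZMP-HA. Flanking peaks within 1 kb numbered 673, of which 81.9% lay within 500 bases of a protein-coding 5′ end, against 68.4% of all H3K4me3 peaks. Step by step past the edge, the share of member edges under an H3K4me3 peak was 12.9% at 700 bases and 6.46% at 2000 bases, while that of the arm regions without ZMP-HA was 8.57% and 5.10%.

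**Figure D4:**
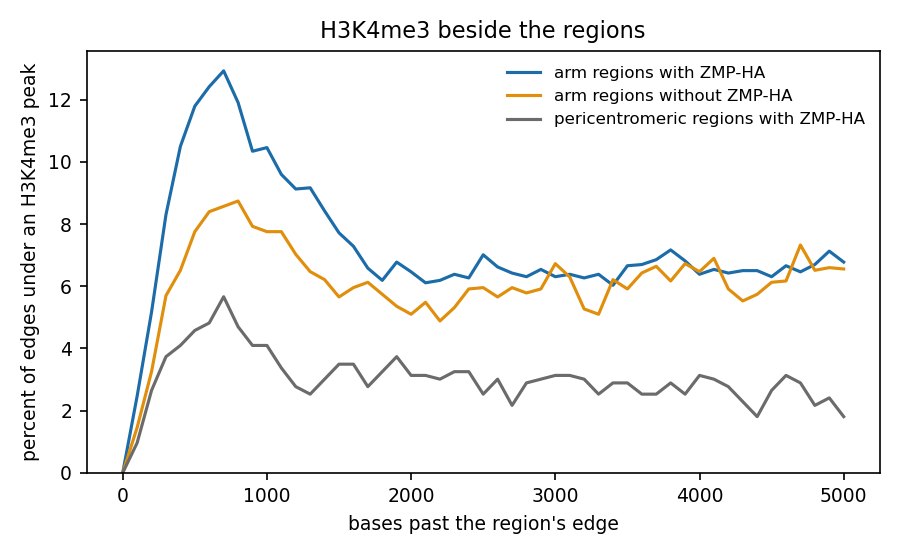
Percent of region edges under an H3K4me3 peak against the distance in bases past the edge, for the members, the arm regions without a ZMP-HA peak and the pericentromeric regions; the rule fixes the value at the edge at 0. The member line is highest at 700 bases, at 12.9%, and is near 6.46% by 2000 bases.

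The members with H3K4me3 nearby did not stand apart in zmp-2. Their median log2 difference was -0.11, against -0.10 for the 692 members with H3K4me3 farther than 1 kb, and both zmp-2 values lay below WT at 23.4% and 22.8%. Their median NRPD1-HA level was 5.77 against 4.83, and their median ZMP-HA level was 2.98 against 2.69. Members were also cut into 3 equal groups by ZMP-HA level. From the lowest to the highest group, H3K4me3 within 1 kb went from 35.2% through 46.0% to 56.3%. The median WT fold enrichment went from 4.26 through 5.21 to 7.61 and the median log2 difference was -0.08, -0.13 and -0.13. H3K4me3 proximity and Pol IV level thus both went with the ZMP-HA level, whereas the difference between genotypes changed little.

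A further copy of the summit sequence was found elsewhere in the genome for 786 (61.5%, 58.8 to 64.2), against 72.8% of arm regions without ZMP-HA and 76.6% of pericentromeric regions. The order of the arm classes depended on the definition, since copies of at least 90% identity over at least 80% of the window were found for 33.4% of members, 32.7% of arm regions without ZMP-HA and 45.5% of pericentromeric regions. By number, 10 or more further copies were found at 202 members (15.8%, 13.8 to 17.9), 46.5% of arm regions without ZMP-HA and 38.6% of pericentromeric regions. The median number of further copies among repeated windows was 3 in members and 17 in arm regions without ZMP-HA. Of all further copies of member sequences, 24.0% lay in the gene-poor windows. By sequence, 630 members matched another member, in 132 groups, the largest of 61 and the next of 59. Members of a group share sequence and are not independent of each other.

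A repeated member is shown in the sequence at chr3:17382893-17383192, which had 860 further copies, the most among members whose 6 summits lay within 150 bases. The capitals again mark the 123 bases from the first to the last summit, plus strand, RefSeq TAIR10.1.
chr3:17382893-17383192: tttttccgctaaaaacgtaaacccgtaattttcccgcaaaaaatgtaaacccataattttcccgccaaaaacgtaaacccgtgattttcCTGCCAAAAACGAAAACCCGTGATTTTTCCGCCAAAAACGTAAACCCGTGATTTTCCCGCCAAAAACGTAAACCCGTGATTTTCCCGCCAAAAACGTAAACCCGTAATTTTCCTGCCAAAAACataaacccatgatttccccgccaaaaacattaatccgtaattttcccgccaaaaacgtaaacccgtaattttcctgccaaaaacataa
The run is itself made of a short unit repeated in tandem. It held 46 cytosines in CG context, counting both strands, against a median of 16 over the members.

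The GC content of the summits lay between those of the other classes. The median GC content of the 300-base window was 39.3% (quartiles 35.3 and 43.3), against 32.0% in arm regions without ZMP-HA and 42.7% in pericentromeric regions. Along the sequence, mean GC in members was 39.6% ± 0.223 (SE over 1278 regions) in the central 100 bases and 36.5% at 200 bases before them. In the arm regions without ZMP-HA the same values were 33.9% ± 0.220 and 28.6%. Both classes had a local rise at the summit, and the members lay higher at each of these positions. Cytosines that could be methylated followed this composition, with medians per window of 16 in CG, 16 in CHG and 82 in CHH context in members (H is A, C or T) and 14, 12 and 67 in arm regions without ZMP-HA. Whether those cytosines were methylated was not measured here.

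**Figure D5:**
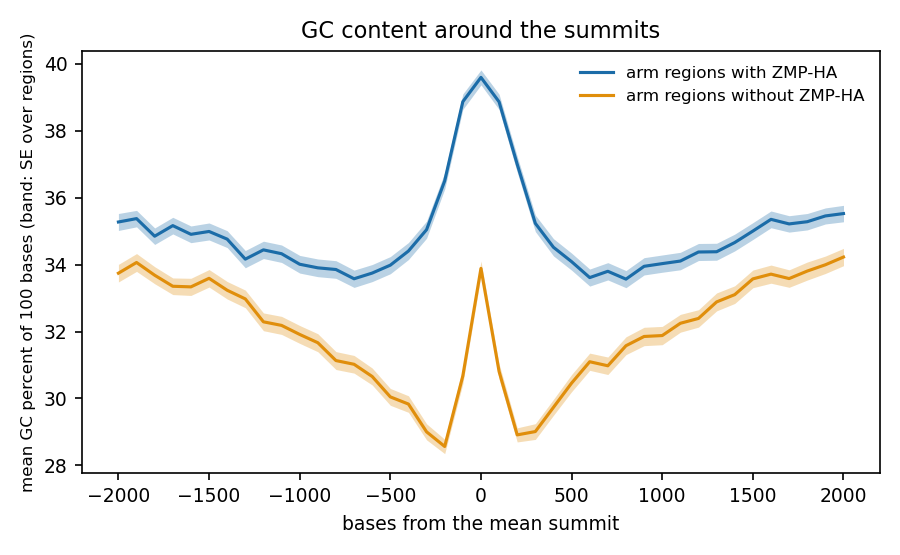
Mean GC percent of 100-base windows against the distance from the mean summit, for the members and the arm regions without a ZMP-HA peak; bands are the SE over regions. The members reach 39.6% at the summit and the other regions 33.9%.

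Pol IV and ZMP summits lay close together. The mean NRPD1-HA and mean ZMP-HA summits were a median of 135 bases apart and within 100 bases at 542 members (42.4%). The replicate summits were a median of 57.5 bases apart in WT NRPD1-HA and 75 bases apart in ZMP-HA, less than the distance between the proteins, and all 4 NRPD1-HA summits spanned a median of 144 bases. All 6 summits lay within 150 bases at 348 members (27.2%). The span of the NRPD1-HA summits was tighter at high levels, with a median of 65 bases at the 45 strongest members and 306 bases at the weakest. ZMP-HA peaks covered a median of 60.9% and 55.0% of the merged region, and NRPD1-HA peaks 83.6% to 96.4%.

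The ZMP-HA height went with the Pol IV height from member to member. Across the 1278 members, the log2 ZMP-HA and log2 WT NRPD1-HA values had a Pearson r of 0.64 and a Spearman rho of 0.47, a description over regions that share libraries, input and base composition. Replicates of 1 protein were closer, with r of 0.93 in WT, 0.93 in zmp-2 and 0.82 for ZMP-HA. ZMP-HA and the difference between genotypes had an r of -0.15. The members with the highest ZMP-HA relative to WT NRPD1-HA lay at chr2:2972973-2974894, chr4:1984925-1987032 and chr1:12844005-12845580, each over a pseudogene. The first had ZMP-HA values of 3.60 and 2.75 with NRPD1-HA at 2.46 and 1.69 in WT and at 3.09 and 3.48 in zmp-2. The second had 2.61 and 3.17 against 1.92 and 1.67 in WT, and the third 4.52 and 3.58 against 3.37 and 1.76. In all 3 each ZMP-HA value was above the WT NRPD1-HA value of the same replicate number, where at the best ranked member it was under 10% of it.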

How the data were processed

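The series held 22 samples, of which the 11 immunoprecipitates each had 1 peak list, and groups and replicate numbers came from the sample labels. The authors trimmed reads with Trim Galore 0.4.3, aligned them to TAIR10 with bowtie2 2.2.9 and called peaks against input with MACS2 2.2.6 in paired-end mode. The deposited lists give for each peak a score, a fold enrichment (a linear ratio at the summit), a −log10 p-value and a −log10 q-value, and no q-value in them exceeded 0.05. Lists hold what passed that threshold, not read counts, and a deeper library passes it at weaker enrichment. Pileup and background were solved from the deposited fold and −log10 p-value, which were rebuilt within 0.1 percent for 100% of peaks.

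Coordinates are 1-based, and each start in the lists was raised by 1 base to give them. Genes and sequence came from RefSeq TAIR10.1, whose 5 nuclear chromosomes have the same names, with 27444 protein-coding genes. Further copies were sought with blastn 2.17.0 (E-value up to 1e-05) and counts were made in Python 3.11.15 with numpy 2.4.6, scipy 1.17.1 and matplotlib 3.10.9. On simulated lists of 600 regions, only some of them planted as members, the rule recovered 100% of the planted members. The pileup was recovered for 100% of 300 simulated peaks. The planted regions met or failed the rule by construction, so this checks the code and not weak real peaks.

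The members, gene lists and alternatives were chosen with earlier results of these data known. Named regions were the 10 members with the best worst rank over the 6 lists, the 3 with the largest and the 3 with the smallest difference between genotypes among those without overlap, the 3 widest, the 3 with the highest ratio of ZMP-HA to NRPD1-HA, and those nearest the edges of the rule. Gene lists were 11 silenced, tuned or imprinted genes, 27 genes of the methylation machinery and families by RefSeq product name. Alternatives were a q-value of 0.01, a 50% cover, other uses of the untagged lists, lists of equal length, wider windows, other flanks and hit definitions, each replicate left out, and a replicate block. Peaks on organelle genomes were left out.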

Additional observations from a re-analysis of the deposited data

How the results depend on the processing

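The values rest on called peaks of 2 libraries a group, on 1 H3K4me3 library and, for ZMP-HA, on summits of a median of 92 and 70 fragments, so weak regions near the threshold can be missed. Of 96 alternatives, 79 left a result on its side and near its value, 15 moved it and 2 turned its direction. The rule gave 635 regions when the peaks of every list had to cover 50% of a region, and 1309 to 1523 when 1 replicate was left out.

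The median log2 difference was -0.39 to 0.14 with 1 replicate left out, and it turned only without WT replicate 1 (0.14). Replicates 1 and 2 of the genotypes share a number and nothing in the labels pairs them. With the replicate block, the median was -0.45 within number 1 and 0.22 within number 2, and deviations of same-numbered libraries had a correlation of 0.67 over members, with 2 pairs. The count above WT was 166 and that below 376 with the block, 144 to 621 and 313 to 876 with 1 replicate left out, and 163 and 363 with each list centred on its median. At the 45 strongest members the median stayed below 0, at -1.64 and -0.65 within the numbers and -1.75 to -0.60 with 1 replicate left out. At a limit of 50 it was -0.94. These alternatives on the strongest members and on the words were added after the data had been seen.

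With 1 replicate left out, the ZMP-HA median was 2.63 to 2.98, H3K4me3 within 1 kb 43.9% to 45.5%, overlap with a coding gene 41.7% to 43.4%, a 5′ end within 500 bases 53.5% to 55.997%, a repeated summit 59.97% to 62.4% and GC 38.7% to 39.8%. Wider or stricter definitions moved these as their construction implies: 62.4% for H3K4me3 within 2 kb, 22.1% for a coding gene at the summit, 68.3% for a 5′ end within 1000 bases, 33.4% for copies of at least 90% identity over 80% of the window, and 35.3% for GC over the whole region. A shared word was found at 17.8% of the strongest members in the 500 bases around the centre and at 71.1% over the whole region.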

Other observations

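The regions that missed the rule by 1 condition had the following values. The 324 that touched an H3K4me3 peak had median fold enrichments of 8.73 and 5.70 in WT NRPD1-HA, 5.69 and 6.69 in zmp-2 and 3.21 and 2.85 in ZMP-HA, with a median width of 2624.5 bases. The 366 that touched only 1 ZMP-HA list had 4.75 and 4.19 in WT against 3.95 and 5.06 in zmp-2, with 2.18 and 2.25 in ZMP-HA where a list had a peak and a median width of 1066 bases. The 106 that touched an untagged set A peak were the widest, at 4985.5 bases, with 5.91 and 3.81 in WT against 4.26 and 4.46 in zmp-2, and 6 of them had a level of 25 or more.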
